A study of Mus musculus with 6 samples.

Results

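The 10 genes described here make up the main chain of MHC class II antigen presentation in the mouse. They were taken by symbol from a table of 32377 gene identifiers in 6 RNA-seq libraries, and all 10 were found and tested. The classical chains are H2-Aa, H2-Ab1 and H2-Eb1, the invariant chain is Cd74, the peptide exchange factor is made from H2-DMa with H2-DMb1 or H2-DMb2, its inhibitor from H2-Oa with H2-Ob, and Ciita is the transactivator. Ciita lies on chromosome 16, Cd74 on chromosome 18 and the other 8 genes in the class II region of chromosome 17. The libraries are 3 labelled as TNFR2-deficient Treg and 3 labelled as TNFR2-positive Treg. Treg cells are CD4 T cells that restrain immune responses and depend on the transcription factor Foxp3, and TNFR2, the product of Tnfrsf1b, binds tumour necrosis factor. The labels of both groups give the cell type and nothing of strain, allele, age, tissue, sort or pooling, nor of what made the first group deficient. Whether libraries of a group came from different animals is not stated. The p-values therefore reflect only how much these libraries vary, and that variation may be technical.

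MHC class II molecules are pairs of an alpha and a beta chain that show peptides from endosomes to CD4 T cells. The invariant chain escorts new pairs to endosomes and fills their groove, H2-DM exchanges its remnant for other peptides, and H2-O holds H2-DM back, mainly in B cells. CIITA switches class II genes on, working through the RFX and NF-Y factors that sit on paired X and Y boxes in class II promoters. B cells, dendritic cells, macrophages and thymic epithelium make class II, while mouse T cells make little of it.

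The shared promoter element is shown because the members did not all move together. The RefSeq promoter table (build GRCm38.p6, windows of 250 bases before to 50 bases after a start site) held windows for 7 of the 10 members. H2-Ab1, Cd74 and Ciita were not among them. An X-like motif, CNNNNAAC, followed 15 to 35 bases later on the same strand by a Y-like motif, TGATTGG, was searched on both strands, after these windows had been read. The pair was in 0.493% of all 32851 windows, TGATTGG alone in 7.82% and CNNNNAAC alone in 81.6%. It was in the windows of 6 members, in the direction of the gene, and in neither of the 2 windows of H2-DMa. H2-Eb2, a class II beta gene beside H2-Eb1, had it too. Capitals mark the X-like and then the Y-like motif, and only bases before the start site are printed:
H2-Aa (chr17:34287862-34287912, minus strand): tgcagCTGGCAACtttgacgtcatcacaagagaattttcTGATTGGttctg
H2-Eb1 (chr17:34305768-34305817, plus strand): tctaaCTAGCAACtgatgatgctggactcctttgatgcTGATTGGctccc
H2-DMb1 (chr17:34153089-34153139, plus strand): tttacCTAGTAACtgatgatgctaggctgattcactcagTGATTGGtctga
H2-DMb2 (chr17:34145118-34145168, plus strand): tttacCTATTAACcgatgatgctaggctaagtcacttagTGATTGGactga
H2-Oa (chr17:34092295-34092345, plus strand): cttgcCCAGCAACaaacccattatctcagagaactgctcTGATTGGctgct
H2-Ob (chr17:34238810-34238857, plus strand): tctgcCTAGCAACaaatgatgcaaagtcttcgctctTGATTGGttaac
The gap between the motifs was 25 or 26 bases in 5 of the 6 members and 23 bases in H2-Ob. In H2-Oa a second X-like match overlaps the one shown. A match is a description of letters and not a measured binding site.

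**Figure D1:**
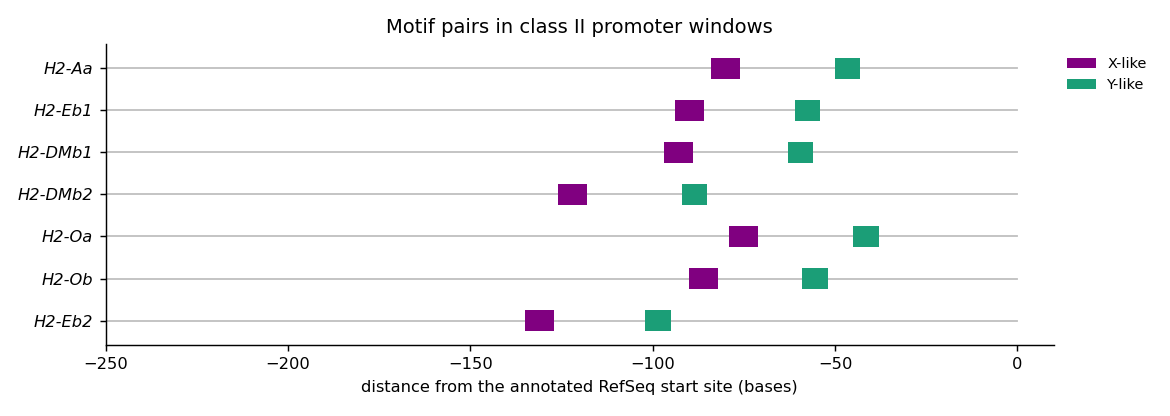
Position of the X-like (purple) and Y-like (green) motif in the promoter windows of 6 members and of H2-Eb2, in bases from the annotated RefSeq start site. The spacing is nearly the same in every window, 26 bases in H2-Aa and 23 bases in H2-Ob.

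Library totals ran from 19296082 to 24038118 counts, and the members held 252403 to 355504 counts per library. Of 17022 genes tested with edgeR, 69.3% passed a Benjamini-Hochberg adjusted p of 0.05 (35.1% of genes rose and 34.2% fell in the TNFR2-deficient group). TNFR2-positive library 1 stood apart from libraries 2 and 3 of its group (chi-square per gene 15.6 and 20.8, against 2.59 between libraries 2 and 3). Tnfrsf1b averaged 7.87 CPM (counts per 1000000 TMM-scaled counts) in the TNFR2-deficient and 83.0 CPM in the TNFR2-positive libraries. Foxp3, which defines Treg cells, averaged 1.44 CPM in the TNFR2-deficient and 75.5 CPM in the TNFR2-positive libraries, so the cell type of the label was nearly without its defining marker in the TNFR2-deficient group. The B cell gene Cd79a was far above either in both groups, at 1995 CPM in TNFR2-deficient and 1178 CPM in TNFR2-positive libraries. In bulk RNA, fewer cells of a type and less RNA per cell cannot be told apart.

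Class II transcripts were among the most abundant in all 6 libraries. The 10 members together took 1.45%, 1.53% and 1.48% of the counts in the TNFR2-deficient libraries and 1.13%, 1.31% and 1.31% in the TNFR2-positive ones. Their summed level was 14953 ± 486 CPM in TNFR2-deficient and 12432 ± 920 CPM in TNFR2-positive libraries (SD, n = 3 each), 1.203-fold higher without overlap (two-sided exact permutation p = 0.1, the smallest that 3 against 3 libraries can give). Ranked by mean CPM among the tested genes, Cd74 was number 11, H2-Aa 22, H2-Eb1 32 and H2-Ab1 42, while H2-Oa was number 1883.

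Per length, the order of the members was almost the same in both groups. In CPM per kilobase of exon, Cd74 stood highest at 3294 ± 141 in TNFR2-deficient and 3371 ± 300.0 in TNFR2-positive libraries. H2-Aa followed with 2763 ± 59.9 in TNFR2-deficient and 1922 ± 145 in TNFR2-positive libraries. H2-Ab1 had 1698 ± 42.8 in TNFR2-deficient and 1181 ± 105 in TNFR2-positive libraries, and H2-Eb1 had 1579 ± 80.7 in TNFR2-deficient and 1034 ± 104 in TNFR2-positive libraries (SD, n = 3 each). The ranges of H2-Ab1 and H2-Eb1 overlapped within each group, although H2-Ab1 was above H2-Eb1 in each of the 6 libraries. Next came H2-DMb2 with 396.5 ± 10.2 in TNFR2-deficient and 302.2 ± 13.4 in TNFR2-positive libraries, and H2-Ob with 275.5 ± 3.19 in TNFR2-deficient and 298.6 ± 0.617 in TNFR2-positive libraries. H2-DMb2 and H2-Ob were apart in TNFR2-deficient libraries and overlapped in TNFR2-positive ones. H2-DMb1, H2-Oa and H2-DMa lay between 92.0 and 159.7 in TNFR2-deficient and between 64.1 and 119.5 in TNFR2-positive libraries. Ciita was lowest, at 25.6 ± 0.230 in TNFR2-deficient and 40.8 ± 3.36 in TNFR2-positive libraries.

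Between the groups, 7 of the 10 members rose, 1 fell and 2 did not pass the threshold, beside 35.1% of all tested genes higher and 34.2% lower. The median log2 fold change (log2FC, TNFR2-deficient over TNFR2-positive) of the members was 0.47, beside 0.04 over all tested genes. The members that rose were the 3 classical chains, the 3 H2-DM genes and H2-Oa, and the one that fell was Ciita. In 9 of the 10 the libraries of the groups did not overlap, 7 higher and 2 lower in the TNFR2-deficient group, beside 74.5% of all tested genes, 38.2% higher and 36.3% lower. The summed counts of the B cell marker list were also used as library size, a scaling chosen after seeing the data. The same 7 members then rose and 3 fell. The log2FC of Cd74 relative to the median of all genes was -0.08 in this scaling and in TMM. That equality is built in, since a new library size moves the log2FC of all genes by nearly the same amount. With the B cell marker scaling 4056 of all tested genes were called higher and 7117 lower, against 5983 and 5819 with TMM.

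**Figure D2:**
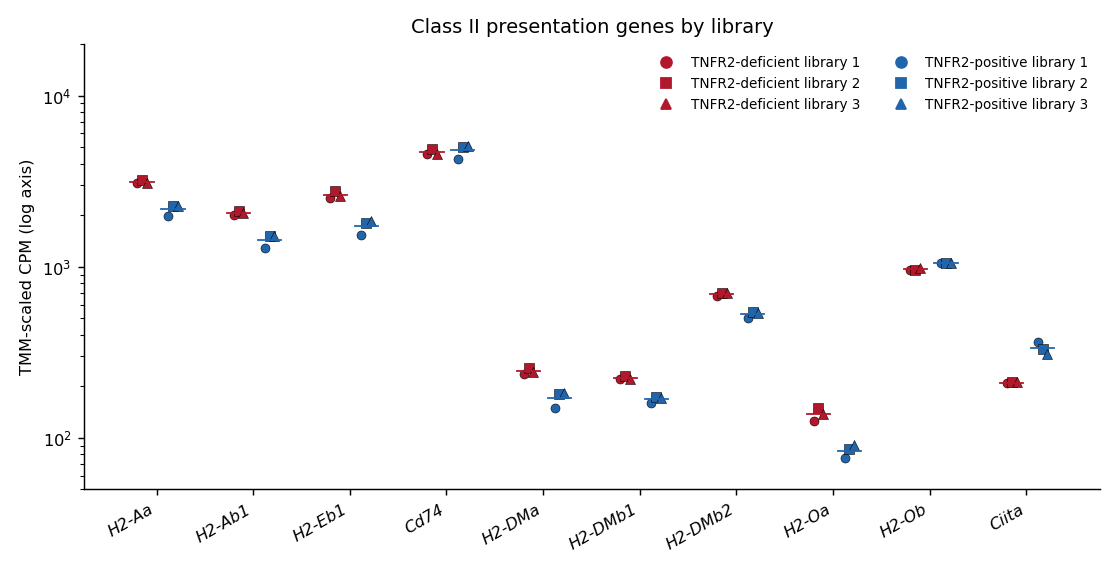
TMM-scaled CPM (log axis) of the 10 members in each library, TNFR2-deficient in red left of TNFR2-positive in blue, with a line at each group's mean. H2-Aa runs from 3065 to 3193 CPM in red and from 1978 to 2266 CPM in blue, while Cd74 overlaps and Ciita is lower in red.

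The classical chains rose by nearly equal amounts. H2-Aa (ENSMUSG00000036594), the alpha chain of the I-A molecule, was at 3065, 3193 and 3093 CPM in TNFR2-deficient libraries and at 1978, 2258 and 2266 CPM in the TNFR2-positive ones. All 3 TNFR2-deficient values lay above all 3 TNFR2-positive ones, with TNFR2-positive library 1 lowest (log2FC = 0.52, SE 0.0658, adjusted p = 2.42e-05). H2-Ab1 (ENSMUSG00000073421), its beta chain, was at 2009, 2112 and 2053 CPM in TNFR2-deficient and at 1284, 1505 and 1506 CPM in TNFR2-positive libraries. It too was apart between the groups, with library 1 lowest in both (log2FC = 0.52, SE 0.0702, adjusted p = 3.99e-05). H2-Eb1 (ENSMUSG00000060586), the beta chain of the I-E molecule, was at 2527, 2786 and 2594 CPM in TNFR2-deficient and at 1526, 1809 and 1841 CPM in TNFR2-positive libraries. Its groups did not overlap either (log2FC = 0.61, SE 0.0772, adjusted p = 2.53e-05).

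The alpha to beta balance of I-A differed between the groups by less than its spread. H2-Aa over H2-Ab1, in CPM per kilobase, was 1.64, 1.62 and 1.62 in the TNFR2-deficient and 1.66, 1.61 and 1.62 in the TNFR2-positive libraries, with means of 1.63 in both (exact permutation p = 1). H2-Eb1 over H2-Ab1 was 0.913, 0.958 and 0.918 in TNFR2-deficient and 0.863, 0.873 and 0.888 in TNFR2-positive libraries, a ratio 1.06-fold higher without overlap (exact permutation p = 0.1). The partner of H2-Eb1 is the alpha chain E, which mice of the b haplotype do not make. Its gene, listed under the symbol H2-Ea-ps, averaged 0.463 CPM in TNFR2-deficient and 0.804 CPM in TNFR2-positive libraries (log2FC = -0.80, adjusted p = 0.0507), far below H2-Eb1 in every library. With the length relation removed it passed (log2FC = -0.97, adjusted p = 0.0234). H2-Eb2, the neighbouring beta gene whose promoter window holds the same motif pair, was at 139.8 CPM in TNFR2-deficient and 132.9 CPM in TNFR2-positive libraries (log2FC = 0.07, adjusted p = 0.296, and 0.16 with an adjusted p of 0.00975 under that removal).

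The invariant chain did not move with the chains it escorts. Cd74 (ENSMUSG00000024610) was at 4553, 4895 and 4545 CPM in TNFR2-deficient and at 4285, 4975 and 5060 CPM in the TNFR2-positive libraries. The groups overlapped, and the difference had a 95% interval of -0.19 to 0.12 on the log2 scale (log2FC = -0.03, SE 0.072, adjusted p = 0.695). Without TNFR2-positive replicate 1 its log2FC was -0.11 with an adjusted p of 0.0358, and after removal of the length relation described with Ciita -0.20 with an adjusted p of 0.0077. Cd74 over the summed classical chains was 0.546, 0.554 and 0.536 in TNFR2-deficient and 0.812, 0.812 and 0.821 in TNFR2-positive libraries. The ratio of the means was 0.669, and the spread within either group was small, TNFR2-positive library 1 included (exact permutation p = 0.1).

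The 3 peptide exchange genes rose by 1.31-fold to 1.44-fold. H2-DMa (ENSMUSG00000037649), the alpha chain of H2-DM, was at 237.2, 255.9 and 242.9 CPM in TNFR2-deficient and at 150.3, 180.9 and 181.7 CPM in TNFR2-positive libraries. It was higher in all TNFR2-deficient libraries (log2FC = 0.52, SE 0.0771, adjusted p = 8.53e-05). H2-DMb1 (ENSMUSG00000079547) and H2-DMb2 (ENSMUSG00000037548), near copies that both encode the beta chain, averaged 224.2 ± 5.73 and 692.8 ± 17.8 CPM in TNFR2-deficient and 167.8 ± 7.59 and 528.0 ± 23.4 CPM in TNFR2-positive libraries. Both rose (log2FC = 0.42 and 0.39, SE 0.0592 and 0.0585, adjusted p = 6.09e-05 and 9.18e-05). Of the stretches of 100 bases in the longest coding transcript, 13.7% in H2-DMb1 and 12.9% in H2-DMb2 are identical in the other gene, so reads can be split between them and their single values are uncertain. H2-DMb2 over H2-DMb1, per length, was 2.48 ± 0.0456 in TNFR2-deficient and 2.53 ± 0.0218 in TNFR2-positive libraries and overlapped. H2-DMa over both beta genes was 0.165 ± 0.00304 in TNFR2-deficient and 0.152 ± 0.00956 in TNFR2-positive libraries, without overlap. Exons of H2-DMa overlap Brd2 on the opposite strand in the GENCODE M21 annotation, and the counting is not stated to use strand. Brd2 had a log2FC of -0.07 (adjusted p = 0.242).

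The chains of the inhibitor H2-O parted. H2-Oa (ENSMUSG00000024334) was at 126.3, 149.9 and 138.6 CPM in TNFR2-deficient and at 75.8, 85.8 and 90.6 CPM in TNFR2-positive libraries. Its groups did not overlap, and its log2FC was the highest of the 10 members (log2FC = 0.72, SE 0.0819, adjusted p = 1.16e-05), 1.64-fold. Part of its sequence, 13.7% of its stretches of 100 bases, also lies in the antisense transcript BC051537, which had 27 to 50 counts per library against 1678 to 3333 for H2-Oa. H2-Ob (ENSMUSG00000041538), its beta chain, was at 960.4, 961.9 and 980.5 CPM in TNFR2-deficient and at 1046, 1051 and 1049 CPM in TNFR2-positive libraries. Its values were lower in each TNFR2-deficient library, yet the difference did not pass the threshold (log2FC = -0.12, SE 0.053, 95% interval -0.23 to 0, adjusted p = 0.0699). It did pass in 6 of 17 alternatives, among them without TNFR2-positive replicate 1 (log2FC = -0.12, adjusted p = 0.0155) and with DESeq2 (log2FC = -0.15, adjusted p = 0.0184), with adjusted p from 0.000613 to 0.787 over all of them. H2-Oa over H2-Ob, per length, was 0.424, 0.503 and 0.456 in TNFR2-deficient and 0.234, 0.264 and 0.279 in TNFR2-positive libraries, a ratio 1.78-fold higher without overlap. Dividing by a fixed length leaves in the length relation described with Ciita. With that relation removed, H2-Oa had a log2FC of 0.55 (adjusted p = 1.34e-06) and H2-Ob of -0.02 (adjusted p = 0.787). H2-O over H2-DM, summed per length, was 0.621 ± 0.00426 in TNFR2-deficient and 0.775 ± 0.0273 in TNFR2-positive libraries.

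**Figure D3:**
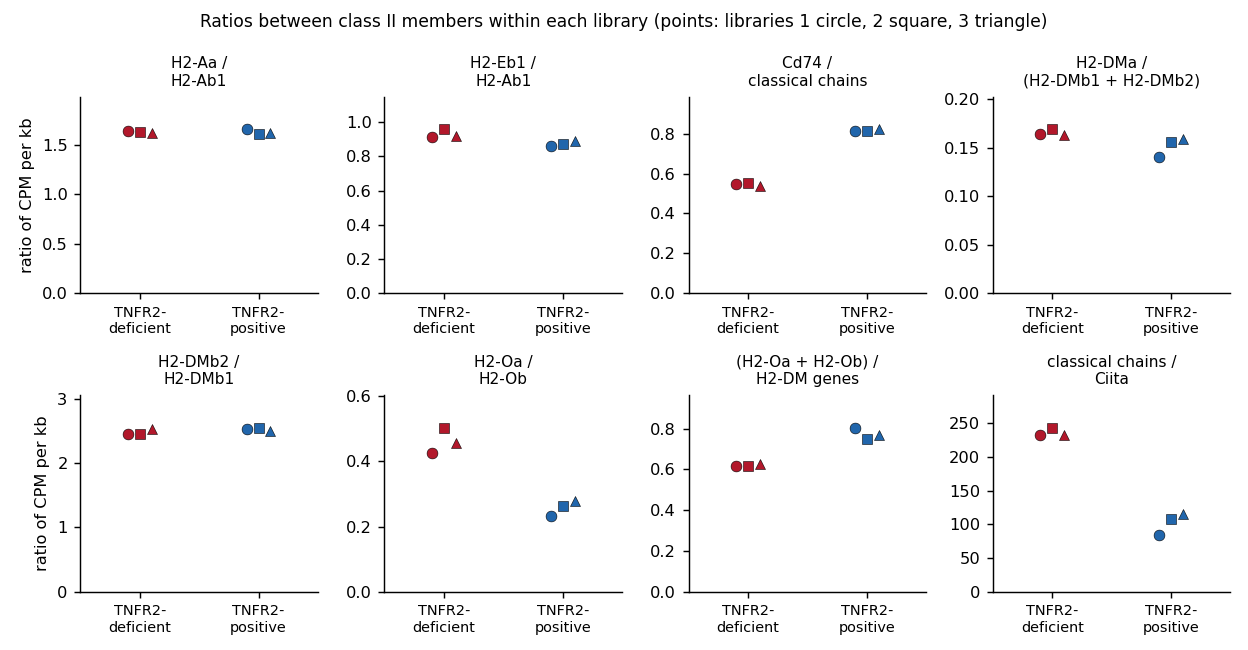
Ratios of CPM per kilobase between members within each library (axes start at 0), TNFR2-deficient libraries in red left of TNFR2-positive ones in blue. Dividing by length does not remove the relation of log2FC to exonic length. H2-Aa over H2-Ab1 and H2-DMb2 over H2-DMb1 overlap, Cd74 over the classical chains is 0.545 in red and 0.815 in blue on average, and H2-Oa over H2-Ob is 0.461 in red and 0.259 in blue.

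Ciita fell, opposite in direction to the 7 members that rose. The gene (ENSMUSG00000022504) was at 208.1, 211.3 and 211.5 CPM in TNFR2-deficient and at 364.9, 330.4 and 310.3 CPM in the TNFR2-positive libraries. All TNFR2-deficient values were lower and close together (log2FC = -0.67, SE 0.067, adjusted p = 3.97e-06), and TNFR2-positive library 1, lowest of its group for the 7 members that rose, was highest for Ciita. The classical chains over Ciita, per length, were 236.3 ± 5.87 in TNFR2-deficient and 102.4 ± 16.4 in TNFR2-positive libraries, 2.31-fold higher. Longer genes were lower in the TNFR2-deficient libraries across all genes (Spearman rho = -0.336 between log2FC and exonic length), and Ciita is the longest member, with 8225 exonic bases against 1088 to 3512 in the others. With that relation removed, its log2FC was -0.12 (adjusted p = 0.0387), while the 7 members that rose had log2FC from 0.25 to 0.55 and all passed. Among these H2-Aa, H2-Ab1 and H2-Eb1 had 0.35, 0.35 and 0.46. The 2.31-fold ratio above still contains the length relation, since dividing by a fixed length does not remove it. Exons of Ciita overlap Dexi on the opposite strand, and Dexi had a log2FC of 0.12 (adjusted p = 0.103).

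**Figure D4:**
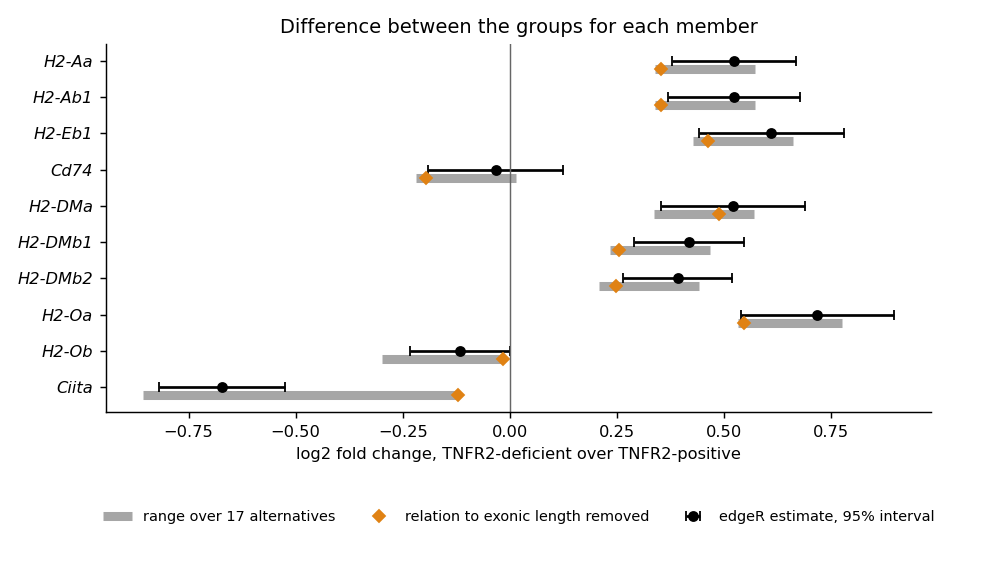
Log2FC of each member, TNFR2-deficient over TNFR2-positive, with the edgeR 95% interval (black), the range over 17 alternative settings (grey) and the value with the relation to exonic length removed (orange). H2-Oa stands highest at 0.72, Cd74 and H2-Ob lie near 0, and Ciita moves from -0.67 to -0.12 when the length relation is removed.

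Class II transcription factors were split. Of 11 tested, 5 rose, 5 fell and 1, Nfyb, did not pass (median log2FC = 0.03), beside 35.1% of all tested genes higher and 34.2% lower. The list holds the factors of the X and Y boxes and also Irf1, Irf4, Irf8 and Spi1, which are not among those. Within the RFX complex, Rfxank and Rfxap averaged 30.6 and 21.7 CPM in TNFR2-deficient and 18.8 and 12.7 CPM in TNFR2-positive libraries, and both rose (log2FC = 0.71 and 0.77, adjusted p = 2.73e-06 and 7.35e-06). Rfx5, the DNA-binding subunit, was at 38.1 CPM in TNFR2-deficient and 64.8 CPM in TNFR2-positive libraries and fell (log2FC = -0.76, adjusted p = 8.23e-06), and had a log2FC of -0.48 with the length relation removed. Of the NF-Y subunits, which bind the Y box, Nfya, Nfyb and Nfyc had log2FC of -0.21, 0.03 and 0.33 (adjusted p = 0.00725, 0.642 and 0.000628), and Nfya no longer passed with the length relation removed (adjusted p = 0.268). Nor did Creb1, which binds beside the X box (log2FC = -0.66 with an adjusted p of 4.65e-05, and -0.07 with an adjusted p of 0.208 after removal). After removal 3 in place of 5 of the 11 were called lower, namely Rfx5, Irf1 and Irf4, of which only Rfx5 is a factor of the X and Y boxes. Irf4, a factor of activated lymphocytes and effector Treg cells, was at 86.6 CPM in TNFR2-deficient and 251.8 CPM in TNFR2-positive libraries (log2FC = -1.54, adjusted p = 9.23e-09).

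Endosomal enzymes that prepare peptides and cut the invariant chain were mostly higher. Of 14 genes of endosomal processing and class II trafficking, 9 rose, 4 fell and 1, Ap2a1, did not pass (median log2FC = 0.42). Among all tested genes 35.1% rose and 34.2% fell. Ap2a1 passed with the length relation removed (log2FC = 0.17, adjusted p = 0.026). The greatest rises were those of cathepsins found in macrophages and many other cells. Ctsl was at 73.2 CPM in TNFR2-deficient and 13.5 CPM in TNFR2-positive libraries, Ctsb at 616.7 CPM in TNFR2-deficient and 239.5 CPM in TNFR2-positive libraries, and Ctsd at 169.3 CPM in TNFR2-deficient and 62.9 CPM in TNFR2-positive libraries (log2FC = 2.44, 1.36 and 1.43, adjusted p = 6.23e-10, 4.26e-09 and 1.96e-08). Ctss, the cathepsin that trims the invariant chain in B cells and dendritic cells, was at 597.1 CPM in TNFR2-deficient and 434.0 CPM in TNFR2-positive libraries and rose (log2FC = 0.46, adjusted p = 3.89e-05). Sppl2a, which degrades the remnant of the invariant chain, fell (log2FC = -0.46, adjusted p = 0.000286), and March1, the ligase that removes class II from the surface, fell as well (log2FC = -0.45, adjusted p = 0.00052). Neither passed with the length relation removed (log2FC = -0.10 and -0.05, adjusted p = 0.101 and 0.414), which left 2 of the list lower. March8, a related ligase, rose (log2FC = 0.996, adjusted p = 7.6e-05).

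The lists of costimulatory ligands, T cell receptors for class II and other class II region genes were short. Their counts therefore say little beside the shares of all tested genes, of which 35.1% rose and 34.2% fell. Of 9 costimulatory ligands tested, 3 rose, 4 fell and 2, Icosl and Cd83, did not pass (median log2FC = 0.02). Cd86, a ligand of CD28, was at 55.7 CPM in TNFR2-deficient and 41.1 CPM in TNFR2-positive libraries and rose (log2FC = 0.44, adjusted p = 6.49e-05). Cd80, the other ligand of CD28, and Cd274, which encodes PD-L1, fell (log2FC = -0.57 and -0.48, adjusted p = 0.00122 and 6.32e-05). Of the T cell receptors for class II, Cd4 rose (428.4 CPM in TNFR2-deficient and 91.0 CPM in TNFR2-positive libraries, log2FC = 2.23, adjusted p = 5.63e-11), and Lag3 did not pass (log2FC = -0.20, adjusted p = 0.15, and -0.31 with an adjusted p of 0.0186 once the length relation was removed). Of 3 other genes of the class II region, 1 rose, Btnl2 (log2FC = 0.35, adjusted p = 0.00571).

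Marker lists of the cell types that make class II moved in different directions. The counts of markers here and in the paragraphs that follow stand beside 35.1% of all tested genes higher and 34.2% lower. All 14 B cell markers were counted in every library, and their summed level was 9997 to 10330 CPM in TNFR2-deficient and 8876 to 8941 CPM in TNFR2-positive libraries. Of the 14, 7 rose, 4 fell and 3, Ebf1, Ms4a1 and Fcer2a, did not pass (median log2FC = 0.11). With the length relation removed, 1 in place of 4 was called lower, and Ebf1 had a log2FC of 0.30 and passed (adjusted p = 4.14e-05). Cd79b, Cd79a and Fcrla, chains of the B cell receptor complex and a B cell Fc receptor-like protein, rose (log2FC = 0.88, 0.76 and 0.48, adjusted p = 9.86e-07, 3.27e-06 and 3.04e-05). The 4 that fell were the complement receptor gene Cr2, the transcription factor Pax5, the adaptor Bank1 and the inhibitory receptor Cd22 (log2FC = -0.60, -0.43, -0.32 and -0.21, adjusted p = 0.000125, 0.000247, 0.000538 and 0.00763). Of these only Bank1 passed with the length relation removed (log2FC = -0.26, adjusted p = 0.000211). Pax5 and Cd22 then changed sign without passing (log2FC = 0.11 and 0.08, adjusted p = 0.0552 and 0.224). The classical chains over the summed B cell markers were 0.760, 0.783 and 0.773 in TNFR2-deficient and 0.536, 0.626 and 0.632 in TNFR2-positive libraries, without overlap. For all 10 members that ratio was 1.458, 1.501 and 1.476 in TNFR2-deficient and 1.272, 1.451 and 1.466 in TNFR2-positive libraries and overlapped. Ratios to marker sums, here and for the other cell types, still contain the length relation. Of the 14 markers, only Cd79b and Cd79a had a higher log2FC than each classical chain. The same held with the length relation removed (log2FC = 0.72 and 0.60).

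All 12 macrophage and monocyte markers were counted in every library, with sums of 1210 to 1249 CPM in TNFR2-deficient and 470.7 to 492.5 CPM in TNFR2-positive libraries. Of these 11 rose, 0 fell and 1, Itgam, did not pass (median log2FC = 1.41). The complement genes C1qc, C1qa and C1qb, made by tissue macrophages, averaged 111.3, 109.2 and 131.1 CPM in TNFR2-deficient and 17.1, 18.6 and 22.4 CPM in TNFR2-positive libraries (log2FC = 2.70, 2.56 and 2.56, adjusted p = 1.45e-10, 1.61e-10 and 3.4e-09). The classical chains over these markers were 6.38 ± 0.0999 in TNFR2-deficient and 11.1 ± 0.798 in TNFR2-positive libraries.

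All 15 dendritic cell markers were counted in every library, with sums of 406.7 to 431.5 CPM in TNFR2-deficient and 773.0 to 887.7 CPM in TNFR2-positive libraries. Most of either sum came from Wdfy4 and Ccr7, which B or T cells also express. Of 13 tested, 0 rose, 10 fell and 3, Batf3, Cd209a and Clec10a, did not pass (median log2FC = -1.08). Batf3 passed with the length relation removed (log2FC = -0.66, adjusted p = 0.0181). Fscn1 and Ccl22, genes of mature dendritic cells, and the integrin gene Itgax fell (log2FC = -1.45, -2.08 and -1.08, adjusted p = 2.7e-08, 3.76e-08 and 1.46e-07). The classical chains over these markers were 18.7 ± 0.125 in TNFR2-deficient and 6.49 ± 0.977 in TNFR2-positive libraries. This ratio still contains the length relation. Wdfy4 had a log2FC of -1.06, and of -0.41 with that relation removed.

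Of the thymic epithelium markers, the defining genes Psmb11 and Foxn1 had 0 to 5 counts per library, where 3 counts correspond to 0.125 to 0.156 CPM, and 5 of 11 markers in the table were at 0 in at least 1 library. Of 6 tested, 1 rose, 1 fell and 4 did not pass, with sums of 40.6 to 44.5 CPM in TNFR2-deficient and 54.7 to 70.6 CPM in TNFR2-positive libraries, and Ly75, which B and dendritic cells also make, was the most abundant at 22.8 CPM in TNFR2-deficient and 47.3 CPM in TNFR2-positive libraries (log2FC = -1.05, adjusted p = 1.36e-05). The one that rose was the tight junction gene Cldn4, at 6.07 CPM in TNFR2-deficient and 0.183 CPM in TNFR2-positive libraries (log2FC = 4.98, adjusted p = 7.63e-08). Its TNFR2-positive libraries had 0.171, 0.0512 and 0.328 CPM, near the level of 3 counts, so the size of that log2FC is uncertain. Those that did not pass were Epcam at 5.63 CPM in TNFR2-deficient and 5.39 CPM in TNFR2-positive libraries, Ccl25 at 4.93 CPM in TNFR2-deficient and 5.83 CPM in TNFR2-positive libraries, and Prss16 and Aire at 1.53 and 1.15 CPM in TNFR2-deficient and 0.999 and 1.09 CPM in TNFR2-positive libraries. Ccl25 passed with the length relation removed (log2FC = -0.41, adjusted p = 0.0211). Double-positive thymocyte markers, of which 10 of 10 rose, summed to 3223 to 3328 CPM in TNFR2-deficient and 362.2 to 378.9 CPM in TNFR2-positive libraries, with Rag1 at 917.9 CPM in TNFR2-deficient and 3.31 CPM in TNFR2-positive libraries. Of 15 Treg core genes 0 rose, 14 fell and Capg did not pass (sums of 231.4 to 260.1 CPM in TNFR2-deficient and 880.8 to 923.9 CPM in TNFR2-positive libraries). All 7 erythroid and all 4 platelet markers tested rose (median log2FC = 1.72 and 2.02), and of 4 endothelial and stromal markers tested 1 rose and 2 fell. The one that rose, Pecam1 (log2FC = 0.15, adjusted p = 0.033), did not pass with DESeq2, RLE scaling or library size only, or when any library but TNFR2-positive replicate 1 was left out. The part of any of these cell types in the class II differences was not tested.

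**Figure D5:**
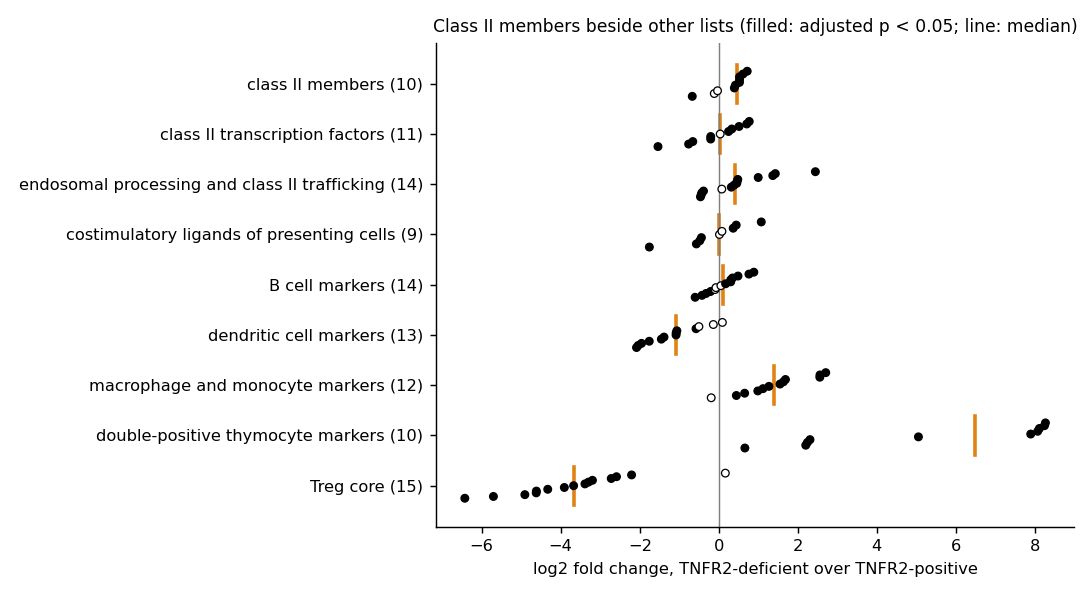
Log2FC of each tested gene (points, filled where the adjusted p is below 0.05), TNFR2-deficient over TNFR2-positive, with the median of each list as an orange line and the number tested in brackets. Class II members have a median of 0.47, B cell markers 0.11, dendritic cell markers -1.08 and macrophage and monocyte markers 1.41.

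Across the 6 libraries the genes most like the mean class II profile were not genes of presentation. By Pearson's r of log2 CPM with the mean standardised level of the 10 members, over 10846 named genes with a mean of at least 5 CPM, the closest were the ribosomal protein genes Rpl8, Rpl36 and Rps28, the cell cycle factor E2f1 and the respiratory chain gene Uqcrc1 (r from 0.997 to 0.998, 6 libraries). They shared with the 7 members that rose the lower level in TNFR2-positive library 1 and a small rise in the TNFR2-deficient group, with log2FC from 0.31 to 0.52. In all, 1045 genes had an r of at least 0.95, so likeness over these 6 libraries separates few genes. Each member is part of the mean profile it was compared with, and the 7 that rose make up most of it, so their high r is largely built in. The members had r of 0.95 to 0.98 for the 7 that rose, 0.329 for Cd74, -0.843 for H2-Ob and -0.928 for Ciita.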

How the data were processed

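The authors deposited whole-number read counts per gene, without normalization, for 3 TNFR2-deficient and 3 TNFR2-positive libraries. Per the labels' protocols, TRIzol RNA was captured on oligo-dT beads and amplified by PCR. The submitters' processing notes name HISAT2 2.1.0 and build GRCm39. For the counting program, annotation and strand setting: not given in the sources used here.

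Symbols were matched for 30529 of 32377 identifiers. After filterByExpr and TMM scaling, genes were tested by the quasi-likelihood method (glmQLFTest, edgeR 4.0.16, R 4.3.3), and p-values were adjusted over 17022 genes by the Benjamini-Hochberg method. SE is the log2FC over the root of F. Levels are CPM of TMM-scaled totals, divided by GENCODE M21 exonic length for comparisons between genes. Exact permutation tests were run on single values. The test recovered known changes on simulated data. Few genes were changed in that simulation, unlike in these data, so it says little about the calls made here. Alternatives were DESeq2 1.42.0, limma-voom 3.58.1, other scalings and filters, a replicate block, length offsets and leaving out each library. The named genes were the members, 3 genes per list with the smallest p, those not past the threshold and the 5 most similar genes. Some genes that the rule names, of erythroid, platelet, endothelial and epithelial lists, are given as counts. Rfx5, Nfya, Nfyc, Creb1, Irf1, Irf8, Spi1, Cr2, Pax5, Bank1 and Cd22 were named after their values were seen. So were March8, Ctss, Sppl2a, March1, Wdfy4, Ccr7, Brd2, Dexi and BC051537. The members and lists were chosen with earlier results of these data known.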

Additional observations from a re-analysis of the deposited data

How the results depend on the processing

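The 7 members that rose kept direction and call under all 17 alternatives, with log2FC from 0.21 to 0.78, and so did Ciita, with log2FC from -0.86 to -0.12. The number of members called lower, 1, was 2 with DESeq2, limma-voom, RLE scaling, the filter of 1 CPM in 3 libraries and exonic length offsets, 3 with B cell marker counts as library size, and 1 to 3 when 1 library was left out, reaching 3 without TNFR2-positive replicate 1. The added calls were Cd74 and H2-Ob, and the cause was not tested. Length offsets and B cell marker scaling moved the median log2FC of all genes to 0.10 and -0.14. Cd74 had log2FC of -0.20 and -0.22 under these settings.

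Deviations of same-numbered libraries from their group means had r of 0.037, 0.054 and -0.061, and those of differently numbered ones ran from -0.109 to 0.076. The labels state no pairing, and with so few libraries these values cannot show whether one exists. With the replicate block 7 members rose and 1 fell, and 6005 of all genes were higher and 5851 lower.

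Among the genes followed through the alternatives, signs turned only for genes not past the threshold. Outside these, the B cell markers Pax5 and Cd22, both called lower, turned with length offsets. Pax5 went from -0.43 to 0.11 and Cd22 from -0.21 to 0.08. Cd74 was at 0.015 with upper-quartile scaling. With length offsets Nfyb was at -0.017, Cd83 at -0.046, Ebf1 at 0.30, Fcer2a at -0.026, Itgam at 0.096, Epcam at -0.051, Aire at -0.032 and Pdgfrb at 0.29. Cd83 was at -0.016 with DESeq2 and RLE scaling. With 1 library left out, Cd74 ran from -0.109 to 0.011, Cd83 from -0.061 to 0.059, Clec10a from -0.031 to 0.211, Aire from -0.095 to 0.252 and Pdgfrb from -0.705 to 0.202. With length offsets the number called lower was 3 in place of 5 class II transcription factors, 2 in place of 4 endosomal genes and 1 in place of 4 B cell markers, and 1 thymic epithelium marker more was lower. Endothelial and stromal markers called higher went to 0 in place of 1 with DESeq2, RLE scaling and library size only, and to 0 or 1 with 1 library left out. The fit without other-cell marker genes gives no value for those lists. The floor of 3 counts covers counting error only, since no molecular identifiers are described.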

Other observations

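The microRNA gene Mir5107, which shares 12 exonic bases with Cd74 on the same strand in the GENCODE M21 annotation, was noticed after its values were seen. It had 133, 167 and 186 counts in the TNFR2-deficient libraries and 506, 536 and 554 counts in the TNFR2-positive ones (log2FC = -1.83, SE 0.126, adjusted p = 2.19e-07, edgeR). The groups were far apart in these counts, while Cd74 itself overlapped between them. The RNA was captured on oligo-dT beads, and whether these counts reflect the mature microRNA was not tested. How reads that touch both genes were counted is not given in the sources used here.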
